A study of Mus musculus with 96 samples.

Results

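The 13 protein genes of the mouse mitochondrial genome were followed across single-cell libraries of a Padi6 mutant mouse line. They were taken as every symbol beginning with mt- in a count table of 36935 gene symbols. The table held 13 such symbols, all of them protein genes. The mitochondrial rRNA and tRNA genes were not analysed here. The 13 are 7 subunits of complex I (mt-Nd1 to mt-Nd6 and mt-Nd4l), cytochrome b of complex III (mt-Cytb), 3 subunits of complex IV (mt-Co1 to mt-Co3) and 2 subunits of the ATP synthase (mt-Atp6 and mt-Atp8).

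The labels divide 96 libraries into 22 of mutant metaphase II oocytes (Padi6P620A/P620A), 22 of mutant 2-cell blastomeres (Padi6MatP620A/+, the allele coming from the mother), 22 of wild-type oocytes and 22 of wild-type 2-cell blastomeres (both Padi6+/+), and 8 negative controls. The allele places a human variant, P620A, in Padi6, whose protein builds the lattices of the egg cytoplasm. Eggs came from superovulated females of 4 to 8 weeks, and the 2-cell embryos from fertilisation in vitro with sperm of males of 8 to 12 weeks. The cumulus cells around the egg were stripped with hyaluronidase. Each library labelled oocyte or 2-cell came from 1 picked cell or blastomere after discarding polar bodies.

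Mitochondrial DNA is transcribed from both strands as long RNAs, which are cut at the tRNAs that punctuate them into mRNAs, rRNAs and tRNAs. Most of the mRNAs then receive a poly(A) tail inside the organelle. The egg carries a large maternal store of mitochondria into the embryo, and mitochondrial DNA is not replicated, or hardly so, during the first cleavages. Because the libraries were primed on poly(A), each level below stands for RNA caught by that priming. Whether the RNA of a given member carried a tail was not measured.

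A tail can also complete the reading frame. The last 30 bases of 5 members are shown because they differ in this respect. Capitals mark the bases of the stop codon that the DNA itself encodes.
mt-Co3: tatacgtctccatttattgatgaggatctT
mt-Nd4: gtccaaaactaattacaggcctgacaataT
mt-Cytb: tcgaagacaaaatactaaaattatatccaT
mt-Nd1: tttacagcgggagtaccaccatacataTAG
mt-Co1: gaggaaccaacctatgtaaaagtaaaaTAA
The transcripts of mt-Co3, mt-Nd4 and mt-Cytb end in a lone T, and the A residues of the tail complete the stop codon. The other 10 transcripts encode 3 stop bases, as mt-Nd1 and mt-Co1 do here. These 5 genes lie on the plus strand of chromosome MT, and all sequences here are from the GENCODE M21 transcripts of build GRCm38.

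Several members have near-identical copies in nuclear DNA, which matters for how reads can be assigned. For mt-Co3, positions 362 to 421 of the transcript are set against its copy Gm28437, an unprocessed pseudogene on the minus strand of chromosome 1. For mt-Cytb, positions 543 to 602 are set against its closest annotated copy, Gm11410, on the plus strand of chromosome 4. Capitals mark mismatches.
mt-Co3: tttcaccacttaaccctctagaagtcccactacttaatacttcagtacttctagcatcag
Gm28437: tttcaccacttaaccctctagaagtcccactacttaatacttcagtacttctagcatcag
mt-Cytb: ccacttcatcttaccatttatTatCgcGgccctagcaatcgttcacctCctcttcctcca
Gm11410: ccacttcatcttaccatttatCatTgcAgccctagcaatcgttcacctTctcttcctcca
The mt-Co3 window has 0 mismatches, and 99.9% of the 50-base words of mt-Co3 also occur in an annotated nuclear transcript. The mt-Cytb window has 4 mismatches, and 0 of 1095 words of mt-Cytb are shared. Besides mt-Co3, at least 98.0% of the words were shared for mt-Co2, mt-Atp6, mt-Nd3 and mt-Nd4l, each with a copy on chromosome 1. Sharing was partial for mt-Nd4 (62.2%), mt-Co1 (51.1%), mt-Nd2 (8.19%) and mt-Nd5 (7.61%), and 0% for mt-Nd1, mt-Nd6 and mt-Atp8. The nuclear copies themselves were not analysed here.

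Libraries were classed by 2 nuclear genes and not by their stage labels. A library with at least 100000 counts and 4000 detected genes was called 2-cell-like if it held under 100 counts per 1000000 (CPM) of Mos, a kinase mRNA of the meiotic egg, and any count of Zfp352, a gene of the early embryonic genome. It was called oocyte-like at 100 CPM of Mos or more. This gave 39 2-cell-like and 39 oocyte-like libraries, 1 library in neither class and 17 under the limits. The highest Mos level in the 2-cell-like class was 63.3 CPM (library 73, labelled mutant 2-cell), and the lowest in the oocyte-like class was 200.6 CPM (library 61, labelled wild-type 2-cell). No oocyte-like library held a Zfp352 count.

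Of the 72 classed libraries with a stage label, 49 fell in the class opposite to it. All 19 kept libraries labelled mutant oocyte were 2-cell-like, as were 7 of 19 labelled wild-type oocyte. All 14 kept libraries labelled wild-type 2-cell were oocyte-like, as were 9 of 20 classed libraries labelled mutant 2-cell. Libraries labelled negative control entered both classes, with 2 that were 2-cell-like and 4 that were oocyte-like. The genotype labels were therefore uneven between the classes: 30 of the 2-cell-like and 9 of the oocyte-like libraries were labelled mutant.

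Markers of the 2-cell stage that the rule did not use were higher in the 2-cell-like class, and oocyte markers were lower there in part. Tdpoz4, AF067061 and Eif1ad6, genes of the 2-cell stage, had counts in 33 to 37 of the 2-cell-like libraries and in 0 of the oocyte-like ones. Zscan4c, Zscan4d, Tmem92 and Usp17lc, the rest of that list, had counts in 37 to 39 2-cell-like libraries. They also had counts in 15, 16, 6 and 5 oocyte-like libraries, where their pooled levels were at most 2.00 CPM. Gdf9, an oocyte growth factor, stood at 627.8 CPM in pooled 2-cell-like and 7381 CPM in pooled oocyte-like libraries. Of the 8 oocyte markers, Gdf9, H1f8, Padi6, Zp2 and Zp3 were over 2-fold lower in the 2-cell-like class. Btg4, which acts in clearing maternal mRNA, was higher in the 2-cell-like class, at 5165 CPM against 3746 CPM in oocyte-like pools. Ooep stood at 99.5 CPM in 2-cell-like and 116 CPM in oocyte-like pools, and Bmp15 at 2120 CPM in 2-cell-like and 3925 CPM in oocyte-like pools. Total counts ran between 503644 and 3185910 (median 1608305) in 2-cell-like libraries, and between 162539 and 5762563 (median 3235838) in oocyte-like libraries. Of 12 cumulus and granulosa cell markers, Has2 was higher in 2-cell-like pools, at 2.39 CPM against 0.456 CPM in oocyte-like pools. The others were lower in 2-cell-like pools, with Hsd17b1 and Thbs1 at 0. Tnfaip6, Cyp11a1 and Col4a1 had counts in 16, 10 and 10 2-cell-like libraries. The summed CPM of the 12 markers ranged up to 139 in the 2-cell-like class. It ranged up to 10665 in the oocyte-like class, where 11 libraries exceeded 1000. Summed blood markers reached 49.1 CPM in 2-cell-like and 388 CPM in oocyte-like libraries, and summed sperm markers 54.2 CPM in 2-cell-like and 18.5 CPM in oocyte-like libraries, with Tnp1 and Tnp2 at 0 in both. Because each library labelled oocyte or 2-cell is 1 cell and the labels name no animal, each class counts as 1 sample. No test was run, and the intervals below cover counting error only.

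The mitochondrial share of all counts was about 8 times as large in the 2-cell-like class. It ranged from 0.600% to 6.67%, with a median of 2.12%, over the 39 2-cell-like libraries. Over the 39 oocyte-like libraries it ranged from 0.0295% to 0.592%, with a median of 0.278%. The lowest was library 95 (labelled negative control), with 162539 counts and a count for 5 members, and the next was library 21 at 0.0625%. Library 95 also gave the lowest oocyte-like levels of mt-Nd1, mt-Co1 and mt-Nd5 below, and the 0 of mt-Nd2, mt-Co2, mt-Atp6 and mt-Nd6. Every 2-cell-like library lay above every oocyte-like library, though the lowest 2-cell-like and the highest oocyte-like library almost touched. The mean was 2.31% ± 1.37 in 2-cell-like and 0.292% ± 0.140 in oocyte-like libraries (SD over libraries). Pooled, the members took 2.25% of 2-cell-like and 0.281% of oocyte-like counts, a ratio of 7.99 (95% interval 7.96 to 8.03). A share cannot tell more mitochondrial RNA per cell from less other RNA per cell.

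**Figure D1:**
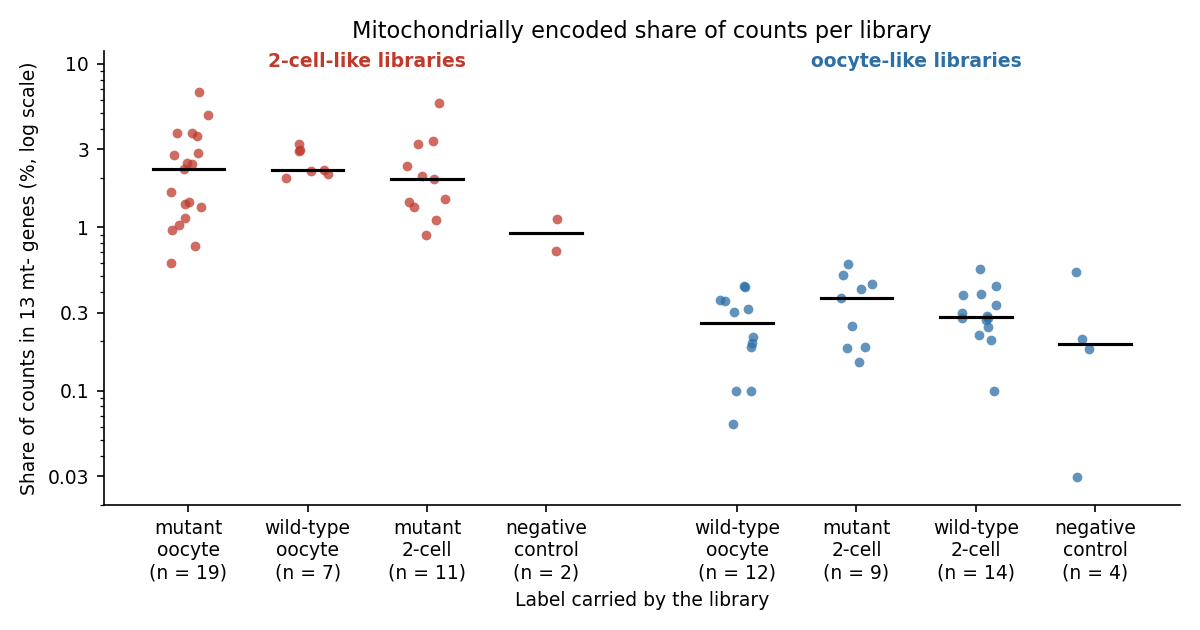
Share of counts in the 13 mitochondrial genes (%, log axis) for each library, grouped by class and, within class, by the label it carries; points are libraries and bars are medians. The 39 2-cell-like libraries lie at 0.600% or above and the 39 oocyte-like libraries at 0.592% or below.

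The same gap was present among libraries that carried the same label. Of the libraries labelled mutant 2-cell, the 11 that were 2-cell-like had 0.892% to 5.77% and the 9 that were oocyte-like had 0.151% to 0.592%, with a pooled ratio of 7.81 (7.75 to 7.87). Of those labelled wild-type oocyte, the 7 that were 2-cell-like had 1.99% to 3.24% and the 12 that were oocyte-like had 0.0625% to 0.434%, with a pooled ratio of 9.37 (9.31 to 9.44). Neither pair of ranges overlapped. The difference between the classes was therefore also present where the label was the same.

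The 2-cell-like libraries spread widely. The highest share, 6.67%, was in library 41 (labelled mutant oocyte), which also had the fewest genes detected, 4328. The next, 5.77%, was in library 74 (labelled mutant 2-cell), with 6063 genes. Library 42, at 4.84%, had 11645 genes, so a high share was also present in a library with many genes. Across the 2-cell-like class the share was nearly unrelated in rank to genes detected (Spearman's rho 0.017) and weakly to total counts (-0.17), over 39 libraries. In the oocyte-like class the share was lower where Mos was higher (rho -0.63) and where the summed oocyte markers were higher (rho -0.60). Each of these levels is a fraction of the same library total, and the part of that in the correlations was not tested. The rho with total counts was -0.14 and with cumulus and granulosa markers 0.22.

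All 12 members that passed the filter on low values were at least 2-fold higher in the 2-cell-like class, where 20.9% of 9677 genes compared were, and 0 were at least 2-fold lower, where 27.8% were. The filter asked for 10 CPM in either class and a count in 50% of the libraries of the higher class. The oocyte-like pools of mt-Co2 (9.73 CPM), mt-Co3 (6.81), mt-Nd3 (2.35) and mt-Nd4l (2.04) were under 10 CPM. These members passed only through the 2-cell-like class, so a lower call was not open to them. The remaining member, mt-Atp8, averaged 6.36 CPM in 2-cell-like and 1.28 CPM in oocyte-like pools. It had no count in 1 2-cell-like and 7 oocyte-like libraries. The median log2 ratio of the 12 was 2.56, beside -0.08 over all genes compared. Taken singly, 1 member, mt-Nd5, had every 2-cell-like library above every oocyte-like library, as did 0.145% of all genes. In the opposite direction there were 0 members and 0.289% of all genes.

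**Figure D2:**
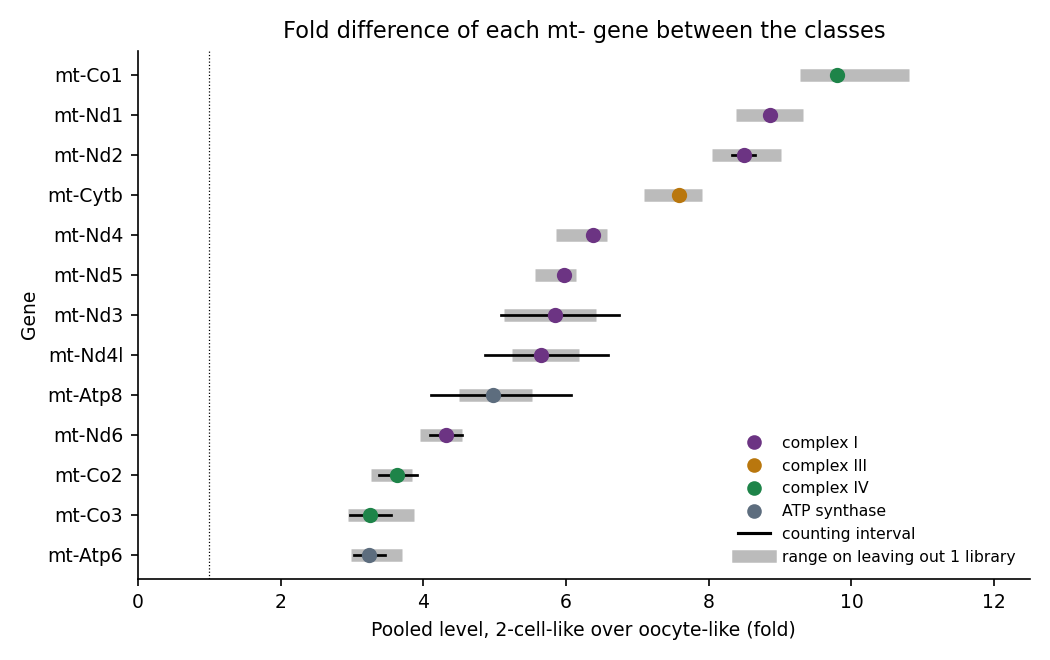
Pooled CPM of each mitochondrial gene in 2-cell-like over oocyte-like libraries (fold, linear axis from 0), coloured by respiratory complex; black lines are counting intervals and grey bars the range when any 1 library is left out. Ratios run from 3.24 for mt-Atp6 to 9.80 for mt-Co1, and the dotted line marks no difference.

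Among the complex I subunits, mt-Nd1 was the most abundant. It ranged from 1372 to 17097 CPM (median 5187) in 2-cell-like libraries and from 55.4 to 1528 CPM (median 558) in oocyte-like libraries. In 38 of 39 2-cell-like libraries it exceeded every oocyte-like library, and the pooled ratio was 8.85 (8.78 to 8.93). mt-Nd2, another membrane-arm subunit, ranged from 231 to 3558 CPM (median 811) in 2-cell-like and from 0 to 326 CPM (median 106) in oocyte-like libraries, with a ratio of 8.49 (8.33 to 8.65). The complex I subunits mt-Nd4 and mt-Nd5 differed by less. mt-Nd4 ranged from 351 to 5813 CPM (median 1241) in 2-cell-like and from 46.9 to 459 CPM (median 243) in oocyte-like libraries, a pooled ratio of 6.38 (6.30 to 6.47). mt-Nd5 ranged from 525.9 to 5623 CPM (median 1360) in 2-cell-like and from 18.5 to 493.1 CPM (median 296) in oocyte-like libraries, a pooled ratio of 5.98 (5.90 to 6.05). The lowest 2-cell-like level of mt-Nd5 thus stood just above its highest oocyte-like level.

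mt-Nd6 is the only member read from the opposite strand, and its gene lies next to mt-Nd5. It ranged from 18.9 to 320 CPM (median 61.9) in 2-cell-like and from 0 to 67.6 CPM (median 17.3) in oocyte-like libraries, a pooled ratio of 4.31 (4.10 to 4.54). Of the 2-cell-like libraries, 21 lay within the oocyte-like range. The kit does not mark strand, so its reads cannot be told from antisense RNA of the other strand. The short subunits mt-Nd3 and mt-Nd4l reached pooled levels of 13.7 and 11.5 CPM in 2-cell-like libraries, against 2.35 and 2.04 CPM in oocyte-like libraries. Their ratios were 5.85 (5.09 to 6.74) and 5.65 (4.87 to 6.59), with 14 of 39 2-cell-like libraries inside the oocyte-like range for either gene.

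mt-Cytb, the membrane subunit of complex III that holds its quinone sites, was the top member in both classes. It ranged from 1807 to 23977 CPM (median 7264) in 2-cell-like and from 62.5 to 2228 CPM (median 974) in oocyte-like libraries. All but 2 of the 2-cell-like libraries exceeded every oocyte-like library, and the pooled ratio was 7.59 (7.54 to 7.64). By pooled level it was the 8th most abundant gene in 2-cell-like and the 105th in oocyte-like libraries. mt-Co1 ranked 13th in 2-cell-like and 250th in oocyte-like libraries, and mt-Nd1 14th in 2-cell-like and 220th in oocyte-like libraries.

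Complex IV held both the largest and nearly the smallest ratio. mt-Co1, its catalytic core, ranged from 794 to 15167 CPM (median 4708) in 2-cell-like and from 49.2 to 1770 CPM (median 473) in oocyte-like libraries, a pooled ratio of 9.80 (9.72 to 9.89). mt-Co2, which takes electrons from cytochrome c, ranged from 4.32 to 180 CPM (median 30.7) in 2-cell-like and from 0 to 26.9 CPM (median 8.45) in oocyte-like libraries, a ratio of 3.63 (3.38 to 3.91). mt-Co3 ranged from 0.657 to 103 CPM (median 14.0) in 2-cell-like and from 0 to 41.5 CPM (median 5.06) in oocyte-like libraries, a ratio of 3.25 (2.97 to 3.55). For mt-Co3, 32 of 39 2-cell-like libraries lay within the oocyte-like range, against 4 for mt-Co1. The ATP synthase subunit mt-Atp6, with 30 of 39 2-cell-like libraries within the oocyte-like range, ranged from 3.63 to 163 CPM (median 38.0) in 2-cell-like and from 0 to 58.0 CPM (median 8.85) in oocyte-like libraries, a ratio of 3.24 (3.03 to 3.46).

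Levels per length fell into a high and a low set that followed position. In pooled 2-cell-like libraries the order per kb of transcript was mt-Cytb (6463 CPM per kb), mt-Nd1 (5583), mt-Co1 (3465), mt-Nd4 (1109), mt-Nd2 (934), mt-Nd5 (911) and mt-Nd6 (158). The 6 genes that lie next to each other from mt-Co2 to mt-Nd4l followed, between 57.8 CPM per kb for mt-Atp6 and 28.2 for mt-Co3. In pooled oocyte-like libraries the same 6 ranged from 17.8 CPM per kb for mt-Atp6 to 6.26 for mt-Atp8, under mt-Cytb at 852 and mt-Nd1 at 630. The 6 abundant genes from mt-Cytb to mt-Nd5 were all above all 6 of the low run in 39 of 39 2-cell-like and 38 of 39 oocyte-like libraries. With mt-Nd6 added to them, this held in 35 of 39 2-cell-like and 36 of 39 oocyte-like libraries.

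Some neighbours in the order were not separated library by library. mt-Cytb exceeded mt-Nd1 per kb in 23 of 39 2-cell-like and 28 of 39 oocyte-like libraries, and mt-Nd2 exceeded mt-Nd5 in 20 of 39 2-cell-like libraries. mt-Co1 exceeded mt-Nd4 in 39 of 39 2-cell-like and 34 of 39 oocyte-like libraries. Of the 6 low genes, 5 are the ones whose 50-base words are shared nearly in full with copies on chromosome 1. The other, mt-Atp8, shares none with an annotated transcript and was as low, at 31.2 CPM per kb in 2-cell-like and 6.26 in oocyte-like pools. Copies were sought among annotated transcripts only, so a copy of mt-Atp8 outside them would have been missed. Its neighbours mt-Co2 and mt-Atp6 each have an annotated copy of 100% identity on chromosome 1. mt-Nd4l and mt-Nd4 lie on the same mRNA, yet stood at 38.8 and 1109 CPM per kb in 2-cell-like pools, and 98.8% and 62.2% of their words are shared. How reads with several equal matches were counted is not given in the sources used here, and the part of the copies in the low levels was not tested.

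**Figure D3:**
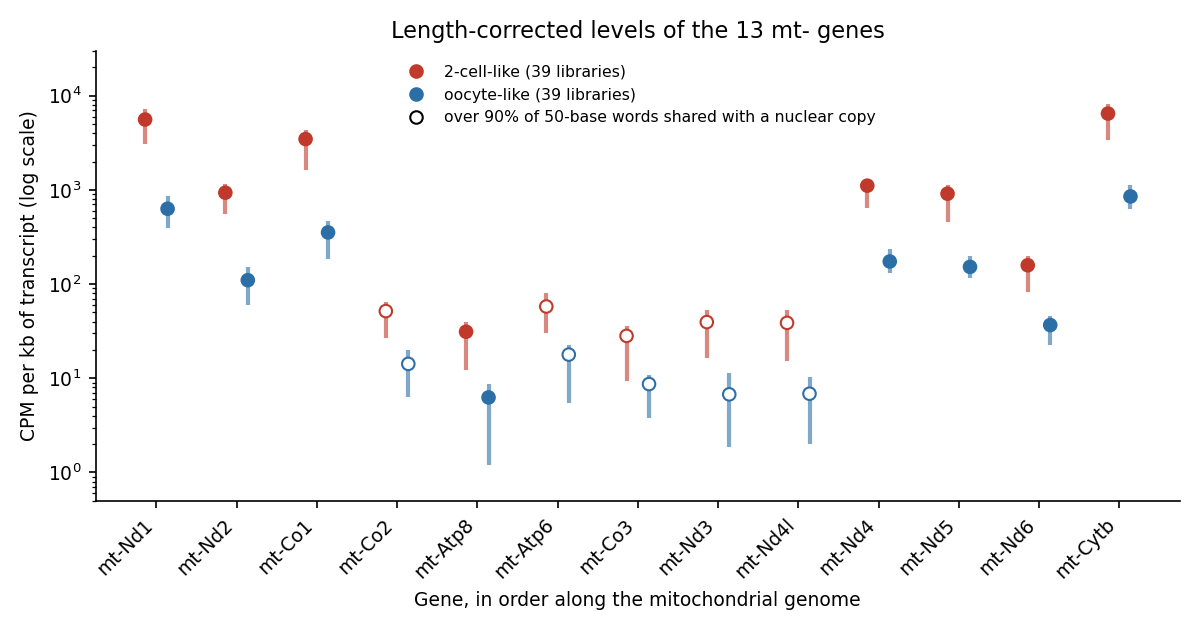
Pooled CPM per kb of transcript (log axis) of the 13 genes in mitochondrial order in 2-cell-like (left of each pair) and oocyte-like libraries; lines span the 25th to 75th percentile of libraries, and open points mark genes with over 90% of their 50-base words in a nuclear copy. The run from mt-Co2 to mt-Nd4l lies at 28.2 to 57.8 CPM per kb in 2-cell-like and 6.26 to 17.8 in oocyte-like pools, below all other members.

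The make-up of mitochondrial RNA differed modestly between the classes. mt-Nd1, mt-Co1 and mt-Cytb together held 80.5% of member counts in 2-cell-like and 75.6% in oocyte-like pools. The run from mt-Co2 to mt-Nd4l held 0.572% in 2-cell-like and 1.22% in oocyte-like pools. mt-Cytb had the most counts in 24 of 39 2-cell-like and 31 of 39 oocyte-like libraries, and mt-Nd1 in 11 2-cell-like and 3 oocyte-like libraries. Members varied together within a class: over the 15 pairs of the 6 abundant genes the median Spearman's rho of CPM was 0.80 in 2-cell-like and 0.71 in oocyte-like libraries. Over the 15 pairs of the low run it was 0.59 in 2-cell-like and 0.52 in oocyte-like libraries. These correlations are over 39 libraries each and share the library totals. The low run has far fewer counts, and the part of that in its lower correlations was not tested.

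mt-Co1 moved with somatic marker RNA in the oocyte-like class. In the 11 libraries above 1000 CPM of cumulus and granulosa markers, mt-Co1 made up 16.5% to 40.6% of member counts (median 25.5%). In the other 28 it made up 8.85% to 35.5% (median 16.0%). The rank correlation between that percentage and the marker sum was 0.51 over 39 oocyte-like libraries, and -0.05 over the 2-cell-like libraries, whose marker sums were low. The share of all members had medians of 0.386% in the 11 and 0.232% in the 28. Library 86 (labelled mutant 2-cell), which had neither Mos nor Zfp352 and 6029 CPM of these markers, had 0.348% of its counts in the members and 32.9% of those in mt-Co1. The part of somatic RNA in the oocyte-like levels was not tested further, but without the 11 libraries the ratio of shares between the classes was 9.02 and that of mt-Co1 14.0.

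**Figure D4:**
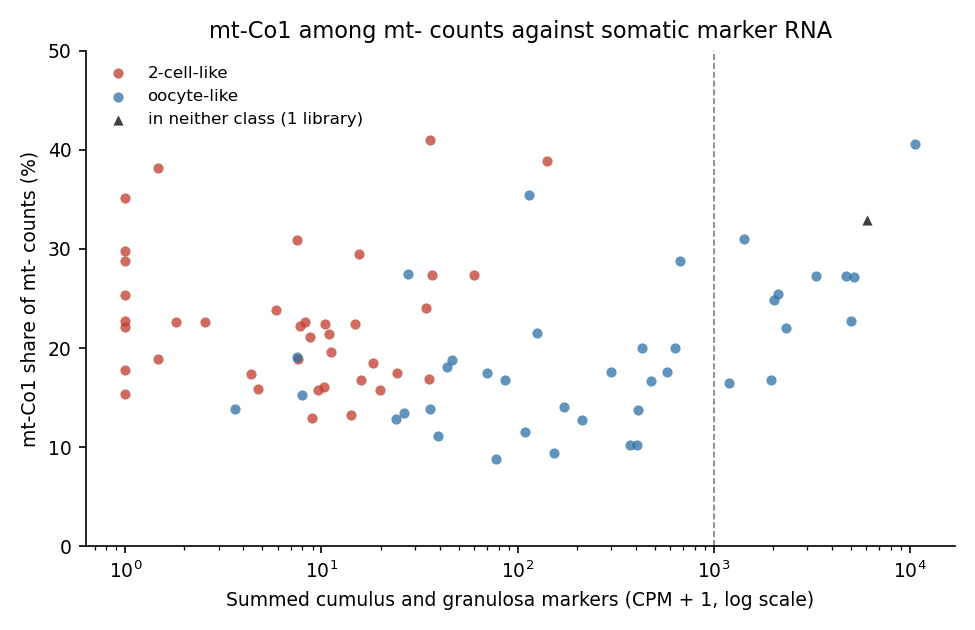
Percentage of mitochondrial counts in mt-Co1 against the summed CPM of 12 cumulus and granulosa markers (CPM + 1, log axis), with 1 point a library; the dashed line marks 1000 CPM. Oocyte-like libraries right of the line have a median of 25.5% and those left of it 16.0%, while 2-cell-like libraries all lie left of it.

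Genotype labels could be compared within a class, where the labels were held to 1 stage name. Both comparisons use libraries whose stage label is opposite to their class. Whether the genotype part of these labels is right was not tested, so genotype is as labelled only. Among 2-cell-like libraries labelled oocyte, the 19 labelled mutant had shares of 0.600% to 6.67% (median 2.26%) and the 7 labelled wild type 1.99% to 3.24% (median 2.22%). The mutant-labelled libraries spread more widely: 5 lay above, 5 within and 9 below the range of those labelled wild type. The mean was 2.41% ± 1.58 (SD, n = 19) in mutant-labelled and 2.53% ± 0.499 (SD, n = 7) in wild-type-labelled libraries. The pooled ratio was 0.934 (0.930 to 0.938). Of 12 members compared, 0 were at least 2-fold higher, where 19.1% of 8485 genes were, and 0 were at least 2-fold lower, where 10.3% were. Ratios ran from 0.715 for mt-Atp6 to 1.25 for mt-Nd5 among these 12. In mutant-labelled libraries mt-Nd5 ranged from 641 to 5623 CPM (median 1494), and in wild-type-labelled libraries from 1193 to 2084 CPM (median 1463). The groups overlapped for every member.

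Among oocyte-like libraries labelled 2-cell, the 9 labelled mutant had shares of 0.151% to 0.592% (median 0.370%) and the 14 labelled wild type 0.0997% to 0.554% (median 0.282%). Only 1 mutant-labelled library lay outside the wild-type range, and the pooled ratio was 1.03 (1.02 to 1.04). Of 9 members compared, 1 was at least 2-fold higher, where 1.48% of 9573 genes were, and 0 were at least 2-fold lower, where 23.4% were. That member was mt-Atp6, with 2.54 to 58.0 CPM (median 12.9) in mutant-labelled and 1.24 to 20.5 CPM (median 11.3) in wild-type-labelled libraries. It passed the filter only through the mutant-labelled pool, at 20.5 CPM against 9.42 CPM in the wild-type-labelled pool. Its pooled ratio was 2.17 (1.89 to 2.49). Without library 94 (labelled mutant) it was 1.54, and with DESeq2 size factors 1.89, so the call rests on that library and on the scaling. mt-Co1 had a ratio of 0.732, which became 1.46 without the libraries above 1000 CPM of somatic markers.

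Stage labels could be compared among the 2-cell-like libraries labelled mutant. The 11 labelled 2-cell, a label that names a mutation from the mother alone, had a pooled share of 2.43%. The 19 labelled oocyte, a label that names both alleles as mutant, had 2.25%, a ratio of 1.08 (1.08 to 1.09). The class of these 19 is opposite to their stage label, so their genotype is as labelled only. The medians ran the other way, at 1.97% in libraries labelled 2-cell and 2.26% in those labelled oocyte, so no direction can be given. All 11 lay within the range of the 19. Of 12 members compared, 0 passed 2-fold in either direction, beside 18.4% of 8765 genes higher and 12.3% lower.

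Nuclear genes that serve mitochondrial DNA and RNA were higher in some cases and lower in others between the classes. These lists were read at the same 2-fold limit, against the same 20.9% higher and 27.8% lower over all genes. Of 6 genes of mitochondrial transcription compared, 1 was higher and 2 were lower, with a median log2 ratio of -0.33 beside -0.08 over all genes. Without the 11 oocyte-like libraries rich in somatic markers, 3 were higher and 2 lower, with a median of 0.44 beside 0.14 over all genes, so the direction of the list depended on them. Tfb2m, the factor that opens the promoter for the mitochondrial RNA polymerase, ranged from 0 to 201 CPM (median 60.0) in 2-cell-like and from 0 to 51.7 CPM (median 23.4) in oocyte-like libraries, a pooled ratio of 2.62 (2.50 to 2.75). Its paralog Tfb1m, an rRNA methyltransferase, ranged from 0 to 56.2 CPM (median 3.65) in 2-cell-like and from 18.7 to 171 CPM (median 66.6) in oocyte-like libraries, 7.91-fold lower. Mterf4, which acts in assembly of the mitochondrial ribosome, was 3.37-fold lower. The 2 paralogs thus differed in opposite directions, and 19 of 39 2-cell-like libraries lay within the oocyte-like range for Tfb2m and 8 for Tfb1m.

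Of 13 genes of mitochondrial DNA upkeep compared, 1 was higher and 3 were lower, with a median log2 ratio of -0.25. Without the same 11 libraries, 3 were higher and 3 lower of 12, with a median of -0.27. Tk2, the mitochondrial thymidine kinase, stood at 60.3 CPM in 2-cell-like and 24.1 CPM in oocyte-like pools, a ratio of 2.50. Its medians were 47.2 CPM in 2-cell-like and 18.9 CPM in oocyte-like libraries. Of the 2-cell-like libraries, 5 lay above, 23 within and 11 below the oocyte-like range of Tk2. Rnaseh1, which removes RNA primers, was 3.70-fold lower at 21.5 CPM in 2-cell-like and 79.5 CPM in oocyte-like pools. Lig3, the DNA ligase of mitochondria, was 3.65-fold lower, and Dguok, the deoxyguanosine kinase, 2.03-fold lower. The Dguok call was lost on leaving out any of 6 single libraries (4, 7, 34, 40, 41 or 90), with a smallest value of 1.97-fold.

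Of 23 genes of mitochondrial RNA processing and decay compared, 6 were higher and 4 were lower, with a median log2 ratio of 0.16. The higher ones lay between 2.07-fold and 2.35-fold: Prorp, the nuclease that cuts the 5′ ends of mitochondrial tRNAs, Elac2, which cuts their 3′ ends, and Fastkd2, Ptcd1, Ptcd2 and Ptcd3, RNA-binding proteins of the organelle. Medians over libraries went the other way for Elac2 (18.2 CPM in 2-cell-like against 29.0 in oocyte-like), Ptcd2 (5.72 against 9.64) and Fastkd2 (16.0 against 18.2). The medians of Prorp, Ptcd1 and Ptcd3 were higher in the 2-cell-like class. Under TMM factors 2 of the list were higher and 6 lower, and under DESeq2 size factors 0 and 6. Leaving out single libraries also ended the calls of Elac2 (38, 43, 45 or 48, down to 1.33), Ptcd2 (36, 43 or 47, down to 1.70), Ptcd1 (45, to 1.996) and Fastkd2 (40 or 41, down to 1.70). The 4 lower genes stayed at least 2-fold lower on leaving out any 1 library. Pnpt1, the polynucleotide phosphorylase that degrades mitochondrial RNA with Supv3l1, stood at 5.39 CPM in 2-cell-like and 28.2 CPM in oocyte-like pools, 5.23-fold lower. Slirp, the partner of Lrpprc in stabilising mitochondrial mRNAs, was 2.95-fold lower, and Lrpprc itself had a pooled ratio of 0.972. The median of Lrpprc was nonetheless lower, at 1.46 CPM in 2-cell-like and 16.0 CPM in oocyte-like libraries. It had no count in 19 2-cell-like and 2 oocyte-like libraries. Hsd17b10 was 10.1-fold lower, or 15.7-fold without library 31, and Trnt1, which adds CCA to tRNAs, 2.14-fold lower. Without the 11 oocyte-like libraries rich in somatic markers, Slirp (ratio 0.553) and Elac2 (1.92) no longer passed 2-fold, Hsd17b10 had a ratio of 0.476 and Prorp 3.78. The poly(A) polymerase Mtpap did not pass 2-fold, at 58.8 CPM in 2-cell-like and 48.5 CPM in oocyte-like pools.

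Of 74 mitochondrial ribosomal protein genes compared, 9 were higher and 26 lower, with a median log2 ratio of -0.45. Without the 11 oocyte-like libraries rich in somatic markers the median was 0.65, with 18 higher and 12 lower of 61, so the direction of the list depended on them. The largest ratios were those of Mrpl49 (3.65), Mrpl46 (3.08), Mrps30 (2.63, or 1.60 without library 41), Mrpl40 (2.63), Mrpl53 (2.60) and Mrps25 (2.59). Of these, only Mrpl49 had a lower median in the 2-cell-like class, at 3.40 CPM against 5.12 CPM in oocyte-like libraries. For Mrpl49, 27 of 39 2-cell-like libraries lay within the oocyte-like range. It passed the filter only through the 2-cell-like pool, at 28.5 CPM against 7.82 CPM. Mrpl33 was 41.9-fold lower, Mrpl52 31.4-fold (60.3-fold without library 42), Mrpl39 19.7-fold (32.2-fold without library 25), Mrpl21 11.2-fold, Mrpl54 10.2-fold and Mrps28 8.93-fold. Without the 11 libraries the ratio of Mrpl33 was 0.0999, that of Mrpl52 0.117, that of Mrpl54 0.268 and that of Mrpl46 5.61. For Mrpl21, 36 of 39 2-cell-like libraries lay below the whole oocyte-like range. For Mrpl33, Mrpl52, Mrpl39, Mrpl54 and Mrps28 all 39 lay within that range, whose lowest value was 0. Mrpl33, Mrpl52 and Mrpl39 stood at 0.878, 0.693 and 1.19 CPM in 2-cell-like pools, with no count in 29, 34 and 34 libraries. All these lower genes passed the filter only through the oocyte-like class. The split over all genes also moved with scaling: 43.0% of genes past 2-fold were higher, against 34.5% under TMM, 30.4% under DESeq2 size factors and 54.4% without the 11 libraries.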

How the data were processed

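The authors deposited raw counts per gene in whole numbers, with no normalization. Reads were trimmed with Trim Galore 0.4.4, aligned with HISAT2 2.1.0 to GRCm39 (mm39) and DESeq2 was used, per the submitters' processing notes. The counting tool and its strand and multi-mapping settings are not given in the sources used here. Of 36983 rows, 48 repeated a symbol and were summed into it, and 0 of 96 columns lacked a sample; 0 pairs of columns were identical. Copies of cDNA were made by PCR without molecular identifiers, so intervals and floors cover counting error only.

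CPM and shares were computed from each column's total. Class levels are summed counts over summed totals, compared by their ratio with an exact conditional binomial 95% interval; a share of a pool has an exact binomial interval. The 2-fold count was tested on simulated data. No doublets were sought, since cells were picked singly. Python 3.11.15, pandas 2.3.3, scipy 1.17.1, BLAST+ 2.17.0, and for factors R 4.3.3, edgeR 4.0.16 and DESeq2 1.42.0 were used. DESeq2 size factors rested on the 1363 genes with a count in every classed library. Transcript lengths and sequences are from GENCODE M21 (GRCm38), an earlier build than the files', so no genome coordinates are given. Copies were sought by BLAST over annotated transcripts at 80% identity or more.

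All members are named; from the nuclear lists, up to 6 genes in each direction with the largest ratio among those at least 2-fold different, plus Lrpprc, Supv3l1 and Mtpap, chosen after their values were seen. The members and lists were chosen with earlier results of these data known. Alternatives were class thresholds, column filters, pooling, totals, scaling, thinning to 100000 counts and leaving out each library; 2 more, without libraries above 1000 CPM of cumulus and granulosa markers and without 2-cell-like libraries under 7000 genes, were added after seeing the data.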

Additional observations from a re-analysis of the deposited data

Results flagged for a closer look

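There were 3 groups of 4 to 10 libraries of the same class and label, and in each the mitochondrial share and the 13 member levels were examined, 42 sets of values in all. In 5 of these sets, all member levels, the highest library stood apart from the rest by a gap that is large for the group's range. Chance flags about 1 in 20 sets where values are independent and normally distributed. Members vary together and their distribution was not checked, so no excess over chance can be read from the 5. Of the 7 2-cell-like libraries labelled wild-type oocyte, library 5 had 30.46 CPM of mt-Atp8, with the next library at 12.49 CPM. The same library had 12270 CPM of mt-Cytb, with the next at 9316 CPM. In that group library 6 had 54.82 CPM of mt-Co3, with the next at 24.47 CPM.

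Among the 4 oocyte-like libraries labelled negative control, library 23 had 1448 CPM of mt-Co1, with the next at 231 CPM. Its mt-Nd6 level was 67.6 CPM, with the next at 9.161 CPM. This library had 5198 CPM of the cumulus and granulosa markers and a mitochondrial share of 0.532%. The part of those cells in its levels was not tested.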

How the results depend on the processing

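The ratio of mitochondrial shares between the classes stayed above 1 under all 13 alternatives, between 6.56 with DESeq2 size factors and 9.02 without libraries rich in somatic markers, and between 7.54 and 8.23 on leaving out each of 78 libraries. The count of members at least 2-fold higher was 12 under 13 of 14 alternatives and 13 with no filter on low values, and 12 on leaving out any library. Between genotype labels the ratio of shares was 0.835 to 1.02 among 2-cell-like libraries labelled oocyte (0.835 to 0.985 on leaving out 1) and 0.896 to 1.31 among oocyte-like libraries labelled 2-cell (0.926 to 1.13 on leaving out 1), so no direction can be given to either. No single library moved the class ratio of a member by over 1.5 times. The median log2 ratio of all genes shifted by -0.22 under TMM and by -0.32 under DESeq2 size factors. Thinned to 100000 counts, libraries kept a median of 11 members with a count in the 2-cell-like and 9 in the oocyte-like class, and mt-Nd4l had a count in 23 2-cell-like and 2 oocyte-like libraries, so a 0 for a short gene is not evidence of absence at this depth. The planned values for mitochondrial rRNA genes were not run, since no such symbol was analysed. No paired analysis was possible because the label numbers are unique to each library and no 2 groups share any.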
